A study of Mus musculus with 9 samples.

Results

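The Schlafen genes described here are Slfn1, Slfn2, Slfn3, Slfn4, Slfn5, Slfn8 and Slfn9, which were taken by their symbols from the gene table and make up 7 of its 31053 genes. They were read in 39051 single cells of femur bone marrow, of which 35109 were placed into cell classes by panels of marker genes. The marrow came from 3 untreated strains of female mice aged 9 to 10 weeks, with 3 mice and 1 library per mouse in each strain: New Zealand Black mice (NZB), New Zealand White mice (NZW) and NZBWF1, the offspring of an NZW mother and an NZB father. NZBWF1 females develop a lupus-like disease later in life, and the age was chosen to precede it. The parents served as controls for the hybrid. The rule for the members used no value, but the family itself was chosen by its UMI levels over these classes and strains, as earlier comparisons of the same data had shown them. Counts over its members are therefore descriptions beside the same counts over all genes, and each adjusted p-value is that of a fit over all genes.

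Schlafen genes are named after the German word for sleeping, because Slfn1 was found to hold thymocytes in a resting state. They form a cluster of neighbouring genes found in mammals, are most active in cells of the immune system, and several of them are induced by type I interferon. Short members such as Slfn1 and Slfn2 carry only the domain shared by the family, Slfn3 and Slfn4 are longer, and Slfn5, Slfn8 and Slfn9 also carry a helicase-like part. Slfn2 is known for keeping T cells quiescent and for the survival of T cells and monocytes in mice, Slfn4 for its expression in myeloid cells, and Slfn8 and Slfn9 are close relatives of the gene group that includes the human antiviral factor SLFN11.

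All 7 genes lie on chromosome 11 within 263.8 kb (GRCm38, 82951349 to 83215154). Slfn5, Slfn2, Slfn1, Slfn4 and Slfn3 are on the plus strand, and Slfn9 and Slfn8 are on the minus strand between Slfn5 and Slfn2. The stretches before the start sites are shown because 2 sets of members share short sequences there. Windows of 250 bases before each RefSeq start site (GRCm38.p6) were searched on both strands for the interferon-stimulated response element, written as GAAA, 2 bases of any kind and GAAA again. It was found in the windows of Slfn5, Slfn8 and Slfn9, at 155, 48 and 45 bases before the start (136 before a second RefSeq start of Slfn8), and in none of Slfn1, Slfn2, Slfn3 and Slfn4. The same letters occur in 2.98% of 32851 promoter windows of the same length. The interferon-gamma activated site TTCNNNGAA, which occurs in 7.02% of windows, was found in no member. A match describes only the letters, and a missing match says nothing about the factor. Stretches of 120 bases free of annotated exons of the gene are given 5' to 3', ending just before the RefSeq start (for Slfn5 they are positions -237 to -118 from it, and lie downstream of the first annotated base of the gene), with the interferon element in capitals, which reads as its reverse complement in Slfn8 and Slfn9. The positions are chr11:82951865-82951984 on the plus strand for Slfn5, and chr11:83020811-83020930 and chr11:82991831-82991950 on the minus strand for Slfn8 and Slfn9.
Slfn5: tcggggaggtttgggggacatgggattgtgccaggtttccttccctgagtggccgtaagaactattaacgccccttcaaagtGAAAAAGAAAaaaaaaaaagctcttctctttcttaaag
Slfn8: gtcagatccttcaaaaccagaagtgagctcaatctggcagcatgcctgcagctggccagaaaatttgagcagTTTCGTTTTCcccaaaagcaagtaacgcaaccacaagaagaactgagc
Slfn9: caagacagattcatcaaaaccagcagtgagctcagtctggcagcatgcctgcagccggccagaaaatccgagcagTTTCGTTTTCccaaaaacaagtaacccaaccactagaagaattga

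Slfn8 and Slfn9 shared a run of 20 bases in these windows, tctggcagcatgcctgcagc in lower case above. The windows of Slfn1, Slfn2, Slfn3 and Slfn4 shared instead the run ACTTCCTGG, at 74, 55, 42 and 73 bases before the start. This run was picked because the members share it, and it occurs in 0.7% of promoter windows. It is shown in capitals for the members whose levels differed between strains, at chr11:83116700-83116819, chr11:83064992-83065111 and chr11:83175066-83175185, all on the plus strand. The RefSeq start of Slfn1 was held by no GENCODE transcript.
Slfn1: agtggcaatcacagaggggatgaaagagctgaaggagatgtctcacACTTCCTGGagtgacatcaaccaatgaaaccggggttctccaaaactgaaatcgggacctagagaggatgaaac
Slfn2: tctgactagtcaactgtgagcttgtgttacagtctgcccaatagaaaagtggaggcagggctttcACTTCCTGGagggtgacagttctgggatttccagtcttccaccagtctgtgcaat
Slfn4: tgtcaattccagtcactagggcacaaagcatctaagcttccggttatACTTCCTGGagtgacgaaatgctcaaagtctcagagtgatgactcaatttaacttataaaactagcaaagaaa

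Of 68444 barcodes called as cells, 39051 passed the quality limits, with 10847 from NZB, 14402 from NZW and 13802 from NZBWF1. The kept cells held 8106539 to 18663189 unique molecular identifiers (UMIs, 1 per captured transcript) per mouse, with a median of 2182 to 2536 per cell. The panels placed 35109 cells (89.9%) into 21 classes, and 5.74% that passed the gates of unlike classes were left out, from 3.66% of NZB to 7.03% of NZBWF1 cells. A sequence of 557 of 67883 barcodes occurred in more than 1 library. RNA from outside the cells was estimated at 0.295% to 1.81% of the UMIs per mouse, as judged from haemoglobin UMIs in lymphoid cells. The lowest estimate, for NZB replicate 2, rests on 2 such UMIs. Lymphoid cells that also passed the gate of haemoglobinizing erythroblasts had been left out before this estimate. Levels are given as CPM, the counts of a gene per 1000000 UMIs of a class in a mouse. Fewer cells carrying a transcript and fewer transcripts per cell cannot be told apart in these sums.

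Slfn2 gave 15431 UMIs in the kept cells, Slfn8 7331, Slfn1 5873, Slfn4 3250, Slfn5 2632, Slfn9 2392 and Slfn3 217. Slfn3 had a mean over all mice of at most 3.82 CPM in any class (the highest single value, 32.9 in T cells of NZBWF1 replicate 2, rests on 2 UMIs) and passed the filter on low counts in no class, only in the sum over all cells. Slfn14, a related gene outside the group described here, gave 121 UMIs and reached 195 CPM in the only NZB mouse and 122 CPM in the only NZBWF1 mouse with enough megakaryocytes. The last 400 bases of Slfn3 shared 26.5% of their 50-base windows with Slfn4, and no other pair of members shared any. Slfn5os, which is antisense to Slfn5, was at 0 UMIs.

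The cell class set the levels first, and these are described with no test, since the classes were made from the same cells. Slfn4 was a gene of the neutrophil stages: it stood at 1.16 CPM in granulocyte-monocyte precursors, 18.6 ± 4.82 in dividing neutrophil precursors, 79.3 ± 14.0 in immature neutrophils and 149 ± 41.5 in mature neutrophils (mean ± SD over 9 mice, all strains together). The ranges of these 3 neutrophil stages did not overlap, and they gave 8.57%, 47.3% and 37.6% of its UMIs in gated cells. Slfn1 was highest in mature neutrophils at 253 ± 51.3 CPM, where the lowest mouse (191) was above the highest mouse of the next class (159, monocytes). Monocytes (118 ± 27.6), T cells (95.6 ± 46.9) and immature neutrophils (93.8 ± 24.6) overlapped in Slfn1. Slfn2 was broad among myeloid cells and T cells, with 457 ± 40.6 CPM in monocytes, 364 ± 56.6 in mature neutrophils, 304 ± 98.3 in dividing monocytes and 223 ± 65.5 in T cells. It was low in dividing pro-B and pre-B cells, at 3.48 ± 2.91 CPM, and in early erythroid progenitors, at 4.38 ± 2.46.

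Slfn5, Slfn8 and Slfn9 were high among monocytes, macrophages and dendritic cells, with means of 34.0 CPM or less in the neutrophil stages and of 14.8 or less in erythroid and plasma cells. Slfn5 reached 202 ± 82.9 CPM in monocytes against 15.0 ± 6.27 in dividing monocytes, with no overlap between the mice of these classes. Monocytes held 67.9% of the Slfn5 UMIs in gated cells. Slfn8 was highest in plasmacytoid dendritic cells, the main producers of type I interferon, at 282 ± 59.8 CPM, and its range there (222 to 405) overlapped that of monocytes (119 to 248). It was the member found most widely, and its level in stem and early progenitor cells was 77.9 ± 28.6 CPM. Slfn9 stood at 61.8 ± 16.8 CPM in monocytes and 60.5 ± 15.5 in plasmacytoid dendritic cells, with overlapping ranges. Macrophages (75.3 ± 47.6, 5 mice) had no NZB mouse with 10 or more cells, so their place in the order rests on NZW and NZBWF1.

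**Figure D1:**
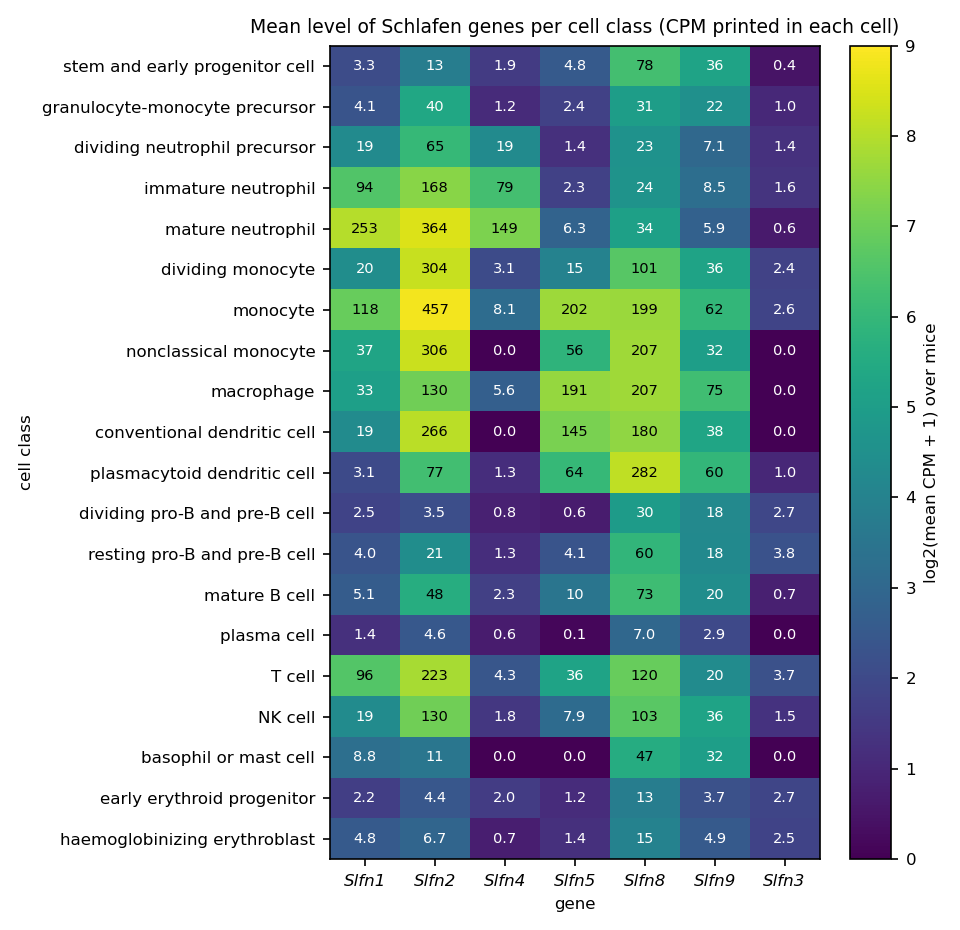
Mean CPM of each Schlafen gene (columns) in 20 cell classes (rows), averaged over the mice of all strains with at least 10 cells of the class, with the mean printed in each field and colour on the log2(mean CPM + 1) scale. Slfn1, Slfn2 and Slfn4 were high in mature neutrophils (253, 364 and 149 CPM), Slfn5 and Slfn8 in monocytes (202 and 199 CPM), and Slfn3 was low in every class.

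Across 20 classes the levels of Slfn8 and Slfn9 had a Pearson correlation of 0.905 on the log2(CPM + 5) scale, Slfn5 and Slfn8 of 0.865, Slfn1 and Slfn2 of 0.821, and Slfn1 and Slfn4 of 0.725. Slfn2 was more like Slfn5 (0.691) and Slfn8 (0.654) than Slfn4 (0.432), and Slfn3 stood between -0.202 and 0.0287 with every other member. Slfn4 went against Slfn8 and Slfn9, at -0.199 and -0.328. These are descriptions over classes that share mice and libraries. The gene most like Slfn8 was Coro1b (0.937), followed by Dtx3l (0.936) and Epsti1 (0.934), and the latter pair are known interferon-stimulated genes. The gene most like Slfn1 was Oas3 (0.865), an interferon-induced antiviral enzyme, followed by Sntb2 (0.856) and Vsir (0.848). Slfn4 was most like Ceacam10 (0.964) and Mmp25 (0.957), the latter a protease of neutrophils. Slfn2 was most like S100a6 (0.927), Slfn5 like Dock4 (0.905) and Slfn9 like Arl10 (0.949). These last genes are not in the list of interferon-responding genes read below. How often such genes rank among the most alike was not worked out, so no interferon theme is read from these matches.

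In the next step the parents were compared within each class. Members were tested where they passed the filter on low counts, which gave 47 gene and class pairs in 15 classes: Slfn8 in 14 classes, Slfn2 in 12, Slfn9 in 9, Slfn1 in 5, Slfn5 in 4 and Slfn4 in 3. Between NZB and NZW, 14 of the 47 pairs passed an adjusted p of 0.05 in edgeR's quasi-likelihood test, against 7.25% of the tests over all genes and classes. That share pools 19 classes, some of them without a tested member, so it is not matched to the classes of the members. The pooled shares in the hybrid comparisons have the same limit. For classes with a call, the share in the class is given below. Slfn1, Slfn2 and Slfn4 accounted for the 10 pairs higher in NZB (3.7% of all tests), all in precursors, neutrophils, dividing monocytes and plasmacytoid dendritic cells. The 4 pairs lower in NZB (3.56% of all tests) were Slfn5, Slfn8 and Slfn9 in monocytes and Slfn2 in natural killer (NK) cells. At an unadjusted p under 0.05 the count was 20, but no share over all genes is given at that threshold, so this count cannot be set against one. The median log2 fold change of the 47 pairs was 0.10, and the count fell to 7 (6 higher, 1 lower) without NZB replicate 2.

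**Figure D2:**
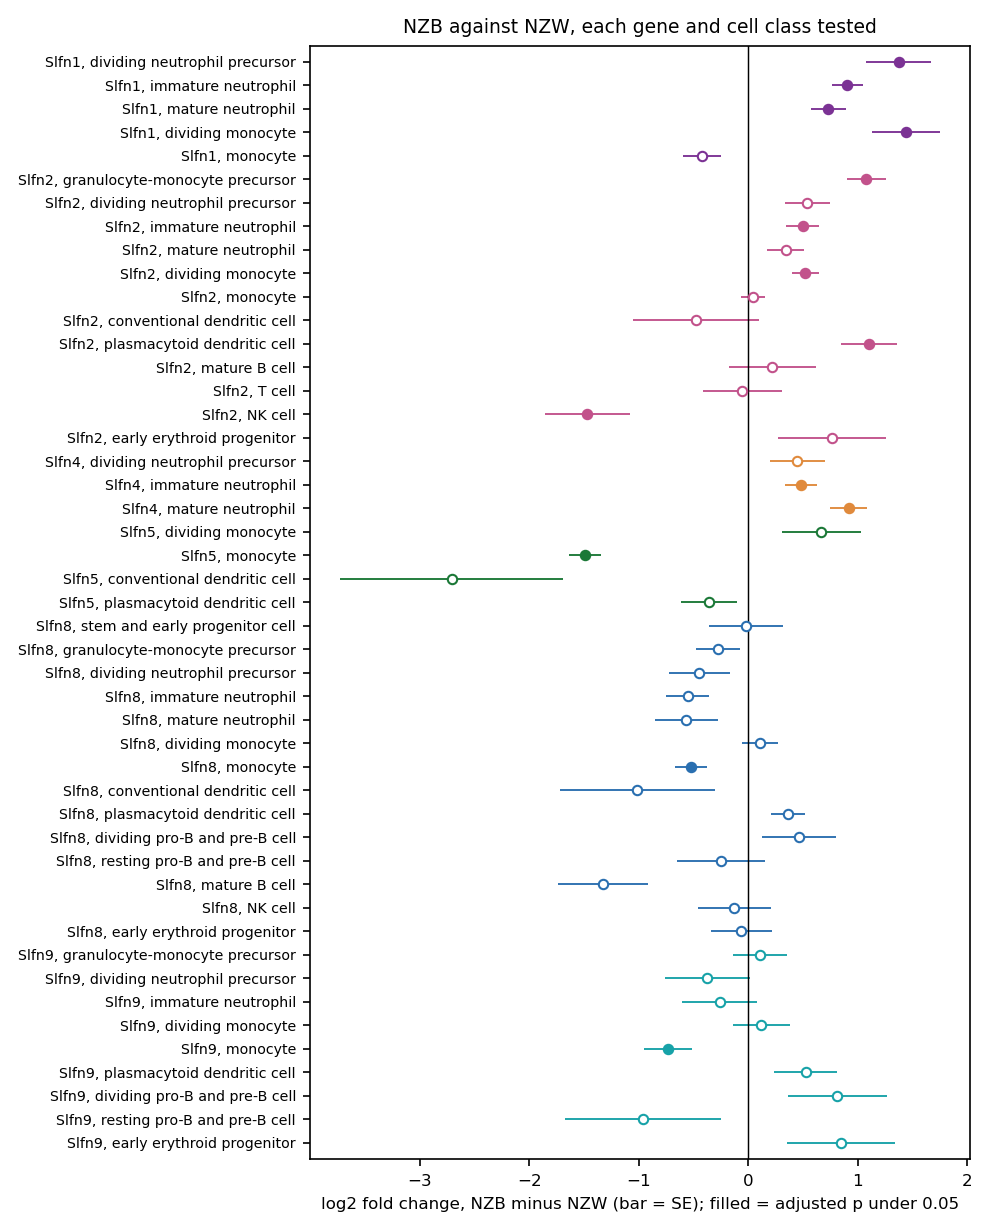
Log2 fold change of NZB minus NZW (horizontal axis, bar = SE) for each of the 47 gene and class pairs tested (rows), in 3 mice per strain except conventional dendritic cells, with filled points for an adjusted p under 0.05. Filled points of Slfn1 and Slfn4 lie right of 0, those of Slfn5, Slfn8 and Slfn9 lie left of 0 in monocytes, and Slfn2 has filled points on both sides.

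The calls of the long members between the parents all came from monocytes, but a missing call does not show that the parents were alike elsewhere. In nonclassical monocytes Slfn5 was at 0 CPM in NZB and at 59.0 to 189 in NZW, on 8 UMIs. In conventional dendritic cells it was at 35.1 CPM in the only NZB mouse with enough cells and at 184 to 222 in NZW. The parents overlapped in Slfn5 in plasmacytoid dendritic cells. In monocytes Slfn5 was at 109.5, 119 and 73.7 CPM in the NZB mice, at 307, 283 and 265 in the NZW mice and at 221, 204 and 238 in the NZBWF1 mice. The 3 groups were separate, with NZB lowest and NZBWF1 in between. The log2 fold change of NZB against NZW was -1.49 (SE 0.15, adjusted p = 4.94e-11, edgeR), a mean of 101 ± 23.9 against 285 ± 20.6 CPM (SD, n = 3). This difference kept its direction and its call in all 20 alternatives, between -1.64 and -0.98.

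Slfn8 in monocytes was at 170, 119 and 175 CPM in NZB, at 175, 248 and 231 in NZW and at 202, 240 and 229 in NZBWF1. The highest NZB mouse was just under the lowest NZW mouse, and the log2 fold change was -0.52 (SE 0.15, adjusted p = 0.0075, edgeR). Slfn9 was at 51.6, 29.8 and 53.8 CPM in NZB and at 79.7, 68.1 and 72.2 in NZW, a log2 fold change of -0.73 (SE 0.22, adjusted p = 0.0133, edgeR). In both genes the NZB and NZW mice did not overlap. NZB replicate 2 was the lowest mouse for both, and without it the adjusted p was 0.142 for Slfn8 and 0.213 for Slfn9 in edgeR. Without NZW replicate 2 it was 0.054 for Slfn8.

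Slfn1 and Slfn2 did not pass the test in monocytes. Slfn1 was at 64.4, 97.6 and 115 CPM in NZB and at 139, 117 and 119 in NZW (log2 fold change -0.42, SE 0.17, adjusted p = 0.0839, edgeR), without overlap. Slfn2 had means of 475 and 460 CPM, with overlapping mice and a log2 fold change of 0.05 (SE 0.11). In monocytes 3 of the 5 members tested were called, against 19.8% of all genes tested there, and 4 of 5 had mice that did not overlap between the parents, against 33.3% of genes.

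Other measures moved with strain in the same monocytes. The summed level of 6 granulocyte-monocyte precursor markers was 1537 to 2689 CPM in NZB and 804 to 944 in NZW, with 4 of 5 tested markers higher in NZB. The 7 markers of neutrophil precursors summed to 563 to 724 CPM in NZB and 287 to 364 in NZW, with Chil3 at 0 in every mouse. Of these, 1 of 5 tested was higher in NZB and 0 lower. The 6 markers of nonclassical monocytes summed to 170 to 245 CPM in NZB and 454 to 506 in NZW, with 1 of 3 tested lower in NZB and 0 higher. The 7 markers of conventional dendritic cells summed to 385 to 691 CPM in NZB and 655 to 1493 in NZW, which overlapped, and 0 of 3 tested were called. The 8 macrophage markers summed to 102 to 116 CPM in NZB and 131 to 167 in NZW, with 3 of 3 tested markers lower in NZB. NZB also gave fewer monocytes, 622 cells against 1514 in NZW and 1328 in NZBWF1. Their part in the Schlafen differences was not tested.

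Dividing monocytes gave another order. Slfn2 was at 355, 489 and 393 CPM in NZB, at 297, 307 and 274 in NZW and at 161, 233 and 225 in NZBWF1, so that the 3 strains were separate with NZB highest and NZBWF1 lowest. The log2 fold change of NZB against NZW was 0.52 (SE 0.12, adjusted p = 0.00115, edgeR). Slfn1 was at 23.7, 53.2 and 32.7 CPM in NZB and at 23.1, 9.13 and 14.5 in NZW, a log2 fold change of 1.44 (SE 0.31, adjusted p = 0.000397, edgeR). The lowest NZB mouse lay just above the highest NZW mouse. Slfn1 passed the filter on low counts in this class through the NZB mice, the group where it was highest. Slfn5, Slfn8 and Slfn9 were not called, with log2 fold changes of 0.67 (SE 0.36), 0.10 (SE 0.16) and 0.12 (SE 0.26). Of the 5 members tested 2 were called, against 13.1% of all genes in dividing monocytes. The 6 nonclassical markers summed to 145 to 178 CPM in dividing monocytes of NZB and 292 to 423 in NZW, and the 1 tested was lower in NZB. The 6 precursor markers summed to 2104 to 2613 CPM in NZB and 2017 to 2293 in NZW, with 2 of 5 tested higher in NZB and 1 lower. The 7 neutrophil precursor markers summed to 262 to 742 CPM in NZB and 586 to 826 in NZW, with 0 of 5 tested higher in NZB and 1 lower. Their part was not tested. NZB replicate 2 held 449 of the 701 dividing monocytes of NZB, and without it the adjusted p was 0.123 for Slfn2 and 0.188 for Slfn1.

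**Figure D3:**
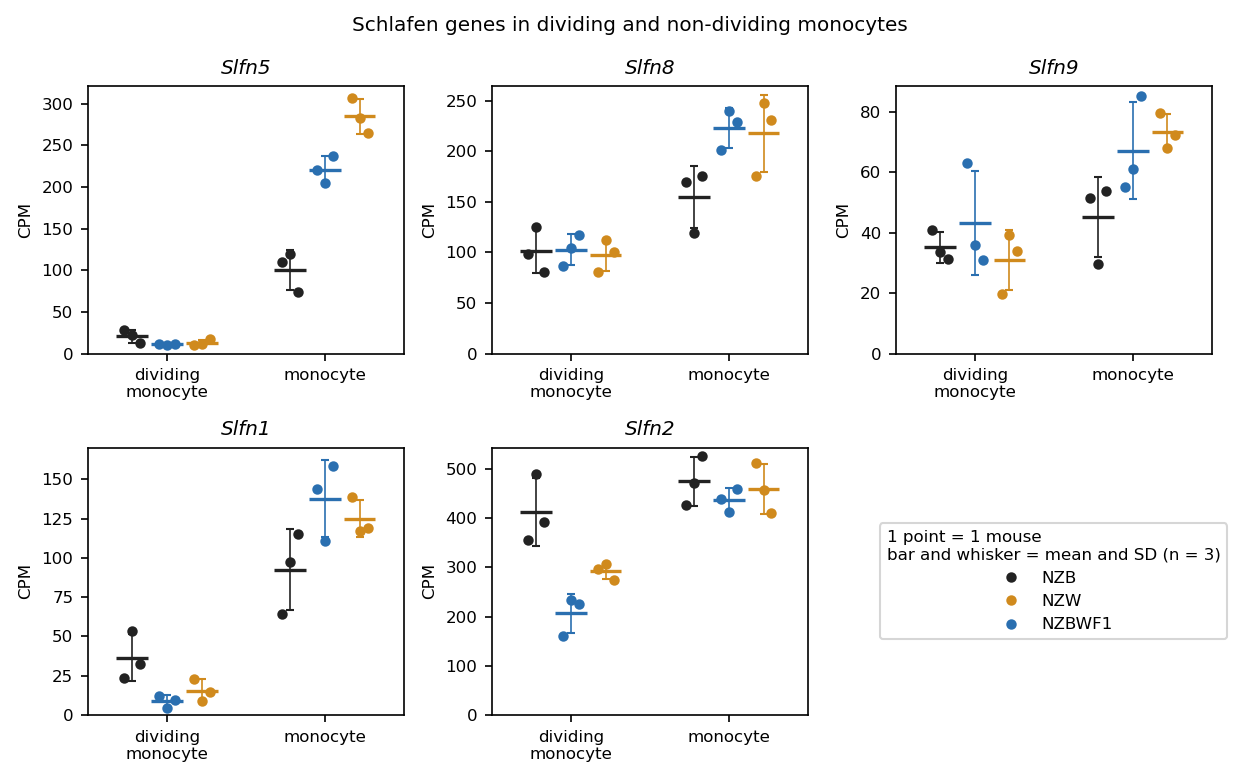
CPM of 5 Schlafen genes in dividing and non-dividing monocytes, 1 point per mouse, with the mean and SD of each strain (n = 3). NZB monocytes lie lowest for Slfn5, at 73.7 to 119 CPM, while NZB dividing monocytes lie highest for Slfn2, at 355 to 489 CPM.

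Whether the difference between the parents itself changed from dividing to non-dividing monocytes was tested in 1 edgeR fit over both classes with a term for each mouse, a test chosen after the values within classes had been seen. The NZB minus NZW difference was lower in monocytes than in dividing monocytes by 2.09 for Slfn5 (log2 change -2.09, SE 0.35, adjusted p = 2.57e-06, edgeR). For Slfn1 the change was -1.79 (SE 0.31, adjusted p = 7.04e-06, edgeR), for Slfn8 -0.65 (SE 0.19, adjusted p = 0.0252, edgeR) and for Slfn2 -0.45 (SE 0.12, adjusted p = 0.00965, edgeR). Slfn9, at -0.90 (SE 0.33, adjusted p = 0.0894, edgeR), was not called. Over all genes 5.27% of 7687 were called. The change of Slfn5 was called in all 13 alternatives, while those of Slfn1, Slfn2 and Slfn8 were not called without NZB replicate 2 (adjusted p = 0.055, 0.45 and 0.85). In all, the calls of Slfn1, Slfn2 and Slfn8 were lost in 2, 4 and 5 of the 13. Each of them was lost with at least 2000 UMIs and 1000 genes per cell. Those of Slfn2 and Slfn8 were also lost with at most 5% mitochondrial UMIs, that of Slfn2 without NZW replicate 1 and that of Slfn8 without NZW replicate 2 or 3. The median was 3513 UMIs per cell in dividing monocytes and 1795 in monocytes. Among the neutrophil stages 0 members were called by edgeR in the same test, and 1 change, that of Slfn4 from immature to mature neutrophils (0.48, SE 0.17), had an unadjusted p under 0.05. There 0.45% of genes were called at an adjusted p under 0.05, and from dividing precursors to immature neutrophils 0.0654%.

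Along the neutrophil stages Slfn1 was called higher in NZB in dividing precursors, immature and mature neutrophils, Slfn2 in immature neutrophils, and Slfn4 in immature and mature neutrophils. Slfn1 was at 16.8, 32.6 and 30.8 CPM in dividing precursors of NZB against 15.7, 11.01 and 7.40 in NZW, a log2 fold change of 1.37 (SE 0.30, adjusted p = 0.00203, edgeR). In immature neutrophils it was at 117, 133 and 116 CPM in NZB against 89.2, 56.2 and 68.6 in NZW, a log2 fold change of 0.91 (SE 0.14, adjusted p = 4.45e-05, edgeR). In mature neutrophils it was at 292, 324 and 317 CPM in NZB against 242, 192 and 191 in NZW, a log2 fold change of 0.73 (SE 0.16, adjusted p = 0.00432, edgeR). All NZB mice were above all NZW mice at each of these 3 stages. The call was lost without NZB replicate 2 in dividing precursors (adjusted p = 0.0521, edgeR) and without NZW replicate 3 in mature neutrophils (adjusted p = 0.0573, edgeR).

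Slfn4 was at 182, 226 and 181 CPM in mature neutrophils of NZB and at 111, 135 and 107 in those of NZW, a log2 fold change of 0.92 (SE 0.17, adjusted p = 0.00108, edgeR) with no overlap. In immature neutrophils the values were 86.1, 93.0 and 97.7 CPM against 89.6, 59.8 and 67.6, which overlapped (log2 fold change 0.48, SE 0.15, adjusted p = 0.0355, edgeR). That call was lost in 10 of 21 alternatives, among them those without any 1 of the NZB mice, NZW replicate 2 or NZW replicate 3 (adjusted p = 0.0682 to 0.184, edgeR). In dividing precursors Slfn4 was not called (log2 fold change 0.45, SE 0.25).

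Slfn2 was called at the earliest stage, in granulocyte-monocyte precursors, at 65.5, 65.2 and 54.0 CPM in NZB against 28.6, 21.7 and 32.3 in NZW. The groups were far apart, with a log2 fold change of 1.08 (SE 0.18, adjusted p = 1.89e-06, edgeR), but at no more than 5% mitochondrial UMIs per cell it was 0.15 (adjusted p = 0.867, edgeR). In immature neutrophils Slfn2 was at 224, 188 and 196 CPM against 199, 125 and 146, which overlapped (log2 fold change 0.50, SE 0.15, adjusted p = 0.0381, edgeR). This call was lost without NZB replicate 1 or 3 or NZW replicate 2 or 3 (adjusted p = 0.0564 to 0.182, edgeR). It was not called in dividing precursors (0.54, SE 0.21) or mature neutrophils (0.34, SE 0.17). Slfn8 had fitted changes of -0.45, -0.55 and -0.57 from dividing precursors to mature neutrophils and was not called in any of the 3.

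**Figure D4:**
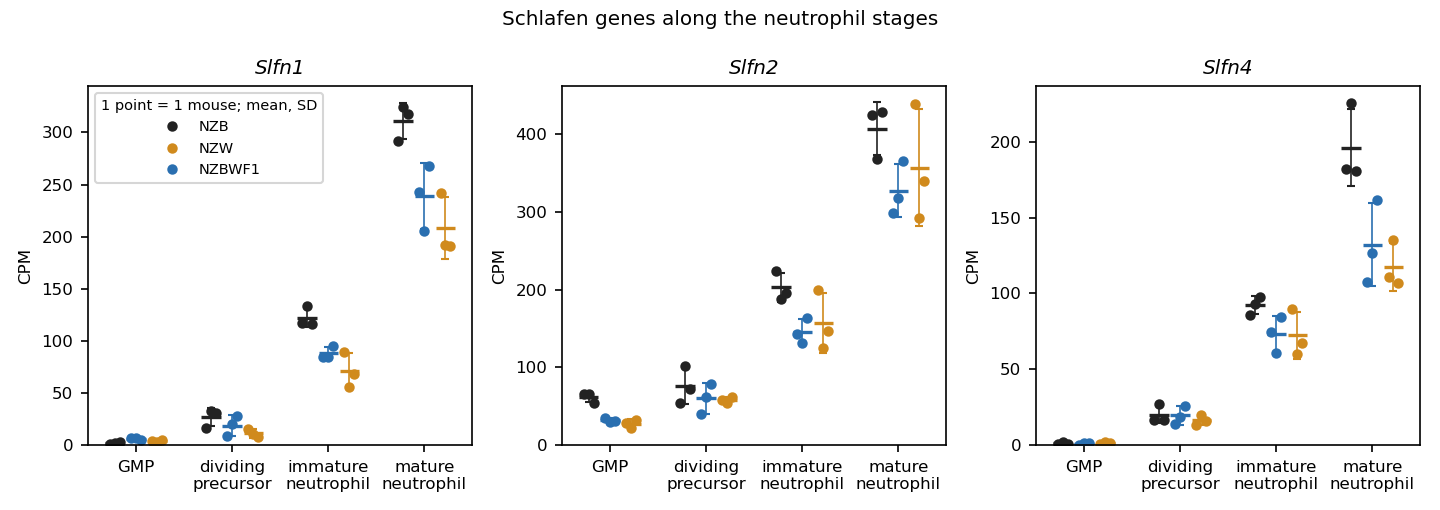
CPM of Slfn1, Slfn2 and Slfn4 in granulocyte-monocyte precursors (GMP) and 3 neutrophil stages, 1 point per mouse, with the mean and SD of each strain (n = 3). NZB mice lie above NZW mice for Slfn1 from dividing precursors on, with 292 to 324 against 191 to 242 CPM in mature neutrophils.

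The share of genes called between the parents was 12.9% in granulocyte-monocyte precursors, 8.72% in dividing precursors, 9.57% in immature and 7.17% in mature neutrophils, where 1 of 3, 1 of 5, 3 of 5 and 2 of 4 members tested were called. Beside these results, the 6 precursor markers summed to 2994 to 4105 CPM in immature neutrophils of NZB and 2152 to 2625 in NZW. Of these, 3 of 6 tested were higher in NZB and 0 lower. The 8 markers of mature neutrophils, where Slfn1 and Slfn4 were highest, summed to 2125 to 2678 CPM in immature neutrophils of NZB and 1805 to 2462 in NZW, with 3 of 7 tested higher in NZB and 1 lower. The 7 markers of neutrophil precursors summed to 104500 to 116100 CPM in mature neutrophils of NZB and 94320 to 99750 in NZW, with 3 of 6 tested higher in NZB and 0 lower. The 6 monocyte markers summed to 31.8 to 64.0 CPM in immature neutrophils of NZB and 29.0 to 41.2 in NZW, and 0 of 6 tested were called. In dividing precursors the 6 precursor markers summed to 2374 to 4460 CPM in NZB and 1265 to 2044 in NZW, and the 8 markers of mature neutrophils to 600.0 to 756 and 354 to 548. In each of these panels 1 of 6 tested was higher in NZB and 0 lower. In granulocyte-monocyte precursors the 8 stem cell markers summed to 159 to 202 CPM in NZB and 235 to 248 in NZW, with 1 of 6 tested higher in NZB and 4 lower. The 6 monocyte markers there summed to 1149 to 1261 CPM in NZB and 1134 to 1364 in NZW, with 2 of 6 tested higher in NZB and 1 lower. The 7 neutrophil precursor markers summed to 1186 to 2750 and 2254 to 2824 CPM, with 0 of 6 tested higher in NZB and 1 lower. The part of these differences in the Schlafen levels was not tested.

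Plasmacytoid dendritic cells and NK cells differed in Slfn2, in opposite directions. In plasmacytoid dendritic cells Slfn2 was at 105, 123 and 109.6 CPM in NZB and at 34.5, 52.7 and 73.8 in NZW, a log2 fold change of 1.10 (SE 0.26, adjusted p = 0.00124, edgeR), where 7.89% of genes were called. All NZB mice were above all NZW mice, which rest on 7, 11 and 16 UMIs. In the same cells the 7 markers of conventional dendritic cells, a class where Slfn2 had a mean of 266 CPM, summed to 6005 to 6479 CPM in NZB and 3326 to 4473 in NZW, with 2 of 6 tested higher in NZB and 3 lower. The 6 monocyte markers summed to 805 to 886 CPM in NZB and 849 to 948 in NZW, with 1 of 5 tested higher and 3 lower. The 8 pro-B and pre-B markers summed to 133 to 162 CPM in NZB and 55.4 to 115 in NZW, and the 1 tested was higher in NZB. Their part was not tested. In NK cells it was at 70.2, 46.9 and 76.8 CPM in NZB and at 286, 94.6 and 184 in NZW, a log2 fold change of -1.47 (SE 0.39, adjusted p = 0.0442, edgeR), where 2.1% of genes were called. The NZB mice rest on 4 to 15 UMIs, and the call was lost without NZB replicate 2 or 3, NZW replicate 1 or 3 or NZBWF1 replicate 1 (adjusted p = 0.12 to 0.295, edgeR). The 7 T-cell markers summed to 1359 to 2416 CPM in NK cells of NZB and 1634 to 1897 in NZW, with 1 of 5 tested higher in NZB and 0 lower. The part of these markers was not tested. Slfn8 in mature B cells missed the threshold with non-overlapping mice, at 31.6 ± 16.1 CPM in NZB and 94.6 ± 19.7 in NZW (log2 fold change -1.33, SE 0.41, adjusted p = 0.074, edgeR). The NZB mice there rest on 7, 1 and 5 UMIs.

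In the sum over all kept cells, which also moves with the mix of classes, Slfn1 (0.68, SE 0.19), Slfn2 (0.50, SE 0.12) and Slfn4 (0.81, SE 0.18) were higher in NZB and Slfn5 (-0.98, SE 0.16) was lower on the log2 scale, with adjusted p-values of 0.0333, 0.0115, 0.0103 and 0.000615 in edgeR. These 4 of 7 members stand beside 19.2% of all genes. Without NZW replicate 3 the count was 2 of 7. The call of Slfn1 was kept in only 11 of 20 alternatives (adjusted p up to 0.151, edgeR). It was lost without any 1 of the NZB mice, without NZW replicate 2 or 3, and with stricter limits on UMIs or mitochondrial share. It was also lost with no filter on low counts and without the deepest 5% of cells. In NZBWF1 against NZB, 3 of 7 were called, against 11.1% of all genes: Slfn5 was higher (0.58), and Slfn2 (-0.65) and Slfn4 (-0.66) were lower.

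The hybrid was then set against each parent. The comparisons share mice, so their values are given side by side. Against NZB, 11 of 47 gene and class pairs were called in NZBWF1, 3 higher (1.39% of all tests) and 8 lower (1.58%), against 2.97% in either direction over all genes and classes. Without NZB replicate 2 the count was 6. Against NZW, 1 of 47 was called, against 0.896%, and leaving out replicate 2 or 3 of NZW, or replicate 2 of NZBWF1, gave a count of 0. At an unadjusted p under 0.05 the count against NZW was 6, with no share over all genes given at that threshold. For the 14 pairs that differed between the parents, the NZBWF1 mean lay between the parental means in 10 and beyond the NZW mean in 4, and it was nearer to NZW in all 14. The median place was 0.191, where 0 is the NZW mean and 1 the NZB mean of CPM. Over all 7162 gene and class pairs called between the parents, the NZBWF1 mean lay between them in 87.4% and beyond NZW in 9.9%, it was nearer to NZW in 65.9%, and the median place was 0.388.

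**Figure D5:**
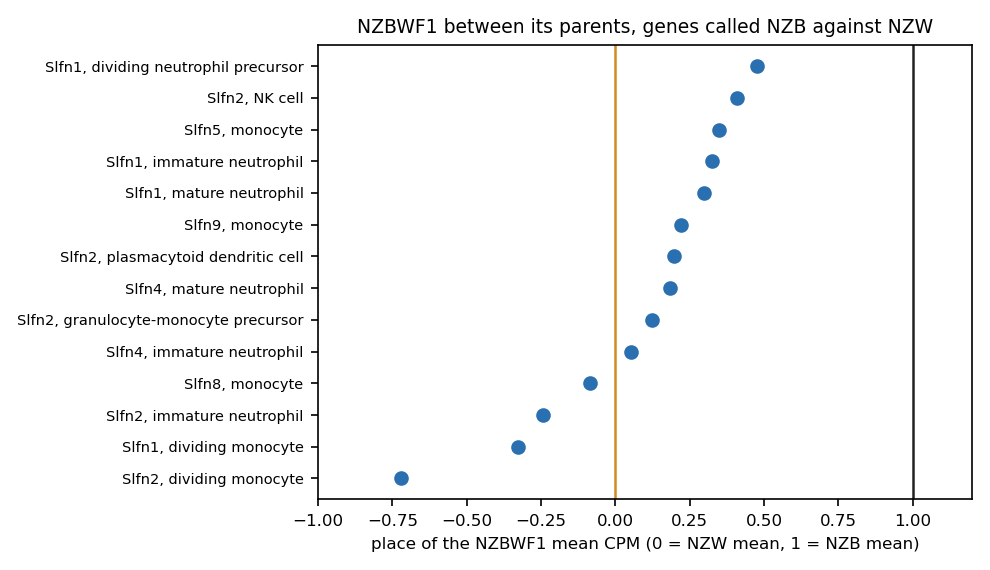
Place of the NZBWF1 mean CPM between the parental means (horizontal axis, 0 = NZW mean, 1 = NZB mean) for the 14 gene and class pairs called between NZB and NZW (rows). All points lie left of the midpoint, from -0.72 for Slfn2 in dividing monocytes to 0.475 for Slfn1 in dividing neutrophil precursors.

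By class, 11.8% of genes differed between NZBWF1 and NZB in monocytes, 5.76% in dividing monocytes, 3.58% in granulocyte-monocyte precursors, 3.86% in immature neutrophils, 2.69% in mature neutrophils and 2.38% in plasmacytoid dendritic cells. In monocytes of NZBWF1 against NZB, Slfn5 was higher by a log2 fold change of 1.10 (SE 0.15, adjusted p = 8.41e-07, edgeR), Slfn8 by 0.55 (SE 0.15, adjusted p = 0.00988, edgeR) and Slfn1 by 0.52 (SE 0.18, adjusted p = 0.0444, edgeR). Slfn1 was at 144, 111 and 159 CPM in these NZBWF1 mice, which overlapped NZB, and its call was lost in 8 of 20 alternatives, with an adjusted p of 0.244 without NZB replicate 1 and 0.264 without NZBWF1 replicate 3 (edgeR). That of Slfn8 was lost without NZB replicate 2 (adjusted p = 0.162, edgeR) or NZBWF1 replicate 2 (adjusted p = 0.0845, edgeR). In these monocytes the precursor markers summed to 799 to 1094 CPM in NZBWF1, the neutrophil precursor markers to 146 to 389, the nonclassical markers to 234 to 451 and the macrophage markers to 170 to 196. The conventional dendritic cell markers summed to 1111 to 1469 CPM. Beside the NZB ranges given above, only the nonclassical range of these markers overlapped that of NZB. Their part was not tested. In dividing monocytes NZBWF1 was lower than NZB by log2 fold changes of -2.40 for Slfn1 (SE 0.40, adjusted p = 1.56e-05, edgeR) and -1.01 for Slfn2 (SE 0.13, adjusted p = 4.88e-08, edgeR), and these calls held in all alternatives run. The Slfn1 values rest on 3, 3 and 6 UMIs in NZBWF1. The alternative filter that asks for a least count in every mouse could therefore not be run on Slfn1 here. Slfn1 passed the main filter in this class through the NZB mice, the group where it was highest. In dividing monocytes the nonclassical markers summed to 225.4 to 346.5 CPM in NZBWF1, above the NZB range of 144.9 to 178.5. The precursor markers (1906 to 2330 CPM) and the neutrophil precursor markers (118.1 to 755.3 CPM) of NZBWF1 overlapped those of NZB. The part of these markers was not tested.

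The other pairs lower in NZBWF1 than in NZB were Slfn2 in granulocyte-monocyte precursors (-0.99, SE 0.18), Slfn1 (-0.66, SE 0.14), Slfn2 (-0.66, SE 0.15) and Slfn4 (-0.52, SE 0.15) in immature neutrophils, Slfn4 in mature neutrophils (-0.75, SE 0.16) and Slfn2 in plasmacytoid dendritic cells (-0.76, SE 0.19). With at least 2000 UMIs and 1000 genes per cell the immature neutrophil values of Slfn2 and Slfn4 turned to 0.016 and 0.17, and that of Slfn4 in all cells to 0.031. Slfn4 in mature neutrophils was at 108, 126 and 162 CPM in NZBWF1, all under the lowest NZB mouse. In granulocyte-monocyte precursors the stem cell markers summed to 268.2 to 282.6 CPM in NZBWF1 and 159 to 201.9 in NZB. The neutrophil precursor markers summed to 91700 to 99400 CPM in mature neutrophils of NZBWF1 and 104500 to 116100 in NZB. The other panels read in these 4 classes overlapped between NZBWF1 and NZB. The part of these markers was not tested. The pair called against NZW was Slfn5 in plasmacytoid dendritic cells, at 46.8, 31.8 and 44.8 CPM in NZBWF1 against 59.1, 95.8 and 106 in NZW and 65.2, 78.6 and 51.3 in NZB. NZBWF1 lay under both parents, with a log2 fold change of -1.08 against NZW (SE 0.29, adjusted p = 0.0188, edgeR), where 2.32% of genes were called. In the same cells the conventional dendritic cell markers summed to 5273 to 6949 CPM in NZBWF1 and 3326 to 4473 in NZW. The monocyte markers and the pro-B and pre-B markers overlapped between NZBWF1 and NZW. The part of these markers in the Slfn5 change was not tested.

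Against the mean of the parental log levels, 3 of 47 pairs were called in NZBWF1, all lower, against 0.394% over all genes and classes. They were Slfn2 in dividing monocytes (log2 fold change -0.74, SE 0.12, adjusted p = 2.99e-05, edgeR), Slfn1 in dividing monocytes (-1.68, SE 0.41, adjusted p = 0.0396, edgeR) and Slfn5 in plasmacytoid dendritic cells (-0.90, SE 0.23, adjusted p = 0.0326, edgeR). The Slfn2 call was kept in all 20 alternatives, with an adjusted p of at most 0.00294 in edgeR or DESeq2. The calls of Slfn1 and Slfn5 were lost in 10 of 18 and 8 of 18, with the highest adjusted p without NZBWF1 replicate 2 (0.56 and 0.42, edgeR). The share of genes called was 0.394% in dividing monocytes and 0.719% in plasmacytoid dendritic cells.

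Genes that respond to interferon were read in the same fits as neighbours in function, from a list of 60. In monocytes 20 of 53 tested were lower in NZB than in NZW and 1 (Psmb8) was higher, against 19.8% of all genes in either direction, with a median log2 fold change of -0.78 against -0.02 over all genes. The lower genes included Ifit1, Ifit2, Ifit3, Isg15 and Rsad2, which are classical antiviral effectors and were named after their values were seen. In NZBWF1 monocytes 22 of 53 were higher than in NZB and 0 were lower, against 11.8% of all genes, with a median of 0.71 against 0.01. In the same comparison 0 of 31 were higher and 3 lower in dividing monocytes (median -0.31, with 5.76% of all genes called), 0 of 38 higher and 3 lower in immature neutrophils (median -0.20, 3.86%), and 2 of 34 higher and 4 lower in plasmacytoid dendritic cells (median -0.48, 2.38%). In monocytes of NZBWF1 against NZW the median was 0.05. Between the parents, in dividing monocytes 6 of 31 were higher in NZB than in NZW and 2 lower (median 0.26, with 13.1% of all genes called). In immature neutrophils 7 of 38 were higher in NZB and 1 lower (median 0.35, 9.57%), and in plasmacytoid dendritic cells 10 of 34 were higher and 2 lower (median 0.29, 7.89%).

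Members of that list called in most classes between NZB and NZW were Ifitm3 (7 classes higher in NZB, 1 lower), Ly6e (4 higher, 4 lower), and Psmb8, Psmb9 and Trim30a (5 higher each, 0 lower). Ifitm3 blocks virus entry, and Psmb8 and Psmb9 are immunoproteasome subunits.

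Genes around the cluster were read in the same way. Of 27 genes starting within 500 kb of a member, 10 were tested in monocytes, where only the chemokine gene Ccl6 was called and was lower in NZB, against 19.8% of genes. In dividing monocytes 2 of 7 were called, Ccl6 higher and 1700020L24Rik lower, against 13.1%. In immature neutrophils only Ccl5 of 10 was called and was higher, against 9.57%. Ccl6 is a marker in the mature neutrophil panel and Ccl5 in the NK cell panel, so the gates also bear on their levels within classes. In all cells 1 of 18 was called, again Ccl6, against 19.2% of all genes.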

How the data were processed

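Single-cell libraries of femur marrow from 9 mice (3 per strain) were read from the deposited matrices of UMI counts, whole numbers per gene and barcode that the authors made with Cell Ranger 3.1.0 (bcl2fastq 2.20, mm10, a C57BL/6J reference for all strains) and joined over libraries. Barcode suffixes were read as line numbers of the merged library list, which names the mice; this numbering, and any thinning at the merge, are not stated by the sources. Cells with under 1000 UMIs, under 500 genes or over 10% mitochondrial UMIs were dropped, as in the study. Of 68444 barcodes 39051 remained. The study, which also removed simulated doublets, gives 31053 cells, a number equal to the genes in the table. Here no doublet caller was run, and cells passing the gates of unlike classes were left out. Gates needed 3 UMIs from 2 genes of a panel and a least share of UMIs set on panel UMIs, without reading Schlafen values, and named classes were not clustered.

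UMIs were summed per class and mouse (10 or more cells) and tested with edgeR 4.0.16 in R 4.3.3 (quasi-likelihood, TMM, filterByExpr, all 3 strains in 1 fit, Benjamini-Hochberg within class and contrast). CPM is per 1000000 UMIs of the class in that mouse. The SE of a log2 fold change was worked back from the test, as its absolute value divided by the square root of the F statistic. It is therefore no measure of spread apart from the p-value. Conventional dendritic cells kept 1 NZB and 2 NZBWF1 mice. DESeq2 1.42.0, other filters, gates, quality limits, free RNA subtraction, summed paralogues and each mouse left out served as alternatives. On simulated data for NZB against NZW, 129 of 200 genes changed 2-fold were recovered in monocytes with 6 others called, among 7630 genes, and 69 of 200 with 5 others in the test between monocyte stages. In mature B cells 63 of 200 were recovered and in immature neutrophils 139 of 200, each with 5 others called. The named genes were the 7 members in every class tested, the list genes called in most classes and, for members with 1000 or more UMIs, the 3 genes most alike over classes. The members, lists and rules were chosen with earlier results of these data known. Same-numbered mice of different strains deviated together in some classes and not in others. In mature neutrophils 6 of 9 such pairs had a correlation over 0.1, against 4 of 18 pairs with unlike numbers. The counts were 5 of 9 against 0 of 18 in immature neutrophils, 6 of 9 against 0 of 18 in NK cells and 0 of 9 against 0 of 18 in monocytes. The labels do not say what the numbers stand for, so they were not taken as pairs in the main fits. Counts with the number as a block are given below. P-values measure the spread between mice. Depth limits low members, since 1 UMI in a class is worth several CPM in rare classes. The count over the list of interferon signalling genes is not reported here.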

Additional observations from a re-analysis of the deposited data

Results flagged for a closer look

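The difference between NZB and NZW changed between dividing and non-dividing monocytes for 4 of the 5 Schlafen genes tested, against 5.27% of 7687 genes, by a test of the difference itself (edgeR, 9 mice, each mouse its own term, chosen after the data were seen). The change from dividing monocytes to monocytes in the log2 NZB minus NZW difference was -2.09 for Slfn5, -1.79 for Slfn1, -0.65 for Slfn8 and -0.45 for Slfn2. Slfn9 (-0.90) was not called. Over 13 alternatives it ranged from -2.41 to -1.61 for Slfn5, from -2.06 to -1.30 for Slfn1, from -0.92 to -0.18 for Slfn8 and from -0.59 to -0.14 for Slfn2. The call was kept in all 13 for Slfn5. It was lost in 2 for Slfn1 (with the stricter limit on UMIs and genes and without NZB replicate 2). For Slfn8 it was lost in 5 (with stricter limits on UMIs or mitochondrial share and without NZB replicate 2, NZW replicate 2 or NZW replicate 3). For Slfn2 it was lost in 4 (with the same stricter limits and without NZB replicate 2 or NZW replicate 1). NZB mice were above NZW mice in dividing monocytes and below them in monocytes on average for Slfn1 (36.5 against 15.6 CPM, then 92.5 against 125) and for Slfn5 (21.0 against 12.9 CPM, then 101 against 285). Slfn1 was not called within monocytes. Slfn5 was not called within dividing monocytes, where its parents overlapped (12.5 to 28.0 CPM in NZB, 9.91 to 16.9 in NZW). The test shows a changed difference, and a reversal of direction was not shown for these genes. The precursor markers summed to 2104 to 2613 CPM in dividing monocytes of NZB and 2017 to 2293 in NZW. In monocytes they summed to 1537 to 2689 CPM in NZB and 804 to 943.6 in NZW. The nonclassical markers were lower in NZB in both classes. The part of these markers was not tested. Groups of 3 mice were not searched for outlying mice by their gaps.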

How the results depend on the processing

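Of 36 named log2 fold changes, 5 kept their direction and call in every alternative. Over 714 alternative values, 711 kept the direction, 583 also kept the call, 128 lost it and 3 reversed. The 3 that reversed did so with at least 2000 UMIs and 1000 genes per cell, in NZBWF1 against NZB: Slfn2 (0.016) and Slfn4 (0.17) in immature neutrophils and Slfn4 in all cells (0.031). That limit also cut the called pairs between NZB and NZW from 14 to 6, between NZBWF1 and NZB from 11 to 3 and between NZBWF1 and NZW from 1 to 0, with fewer cells and 35 or 36 pairs tested. DESeq2 called 9 pairs for NZB against NZW, 0 for NZBWF1 against NZW and 1 against the mean of the parental logs. With no filter on low counts NZBWF1 against NZW gave 2, and with at most 5% mitochondrial UMIs the comparison with the parental mean gave 1. The cause of these changes was not tested. Leaving out 1 mouse gave 7 to 15 pairs between NZB and NZW, 6 to 12 between NZBWF1 and NZB, 0 to 2 between NZBWF1 and NZW, 1 to 3 against the parental mean, and 2 to 4 members in all cells. The lowest values came without NZB replicate 2 for NZB against NZW (7) and NZBWF1 against NZB (6), and without NZW replicate 3 in all cells (2). With the replicate number as a block, the pairs called were 14 between NZB and NZW, 14 between NZBWF1 and NZB, 1 between NZBWF1 and NZW, 2 against the parental mean and 4 in all cells. Of 56 level values under stricter gates or with free RNA subtracted, 0 moved by over 1 SD. Depth limits the rarer classes, where a member's level rests on few UMIs.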
